A study of Mus musculus with 24 samples.

Results

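The liver library is a single PAPERCLIP library of 24 libraries in the series, and it was set against the 8 untreated brain PAPERCLIP libraries. In PAPERCLIP, ultraviolet light fixes poly(A)-binding protein (PABP) to mRNA, and 3' ends are sequenced, so a count stands for transcript ends of a gene and does not scale with transcript length. Liver came from a mouse labelled CL57/B6J, with no Cre line and no tagged protein named. The brain libraries came from cTag-PABP mice, in which PABP carries GFP only where Cre is made: Gfap-Cre, Gad2-Cre and Camk2a-Cre cortex and Cx3cr1-Cre whole brain, with 2 libraries each. Gfap marks astrocytes, Gad2 inhibitory neurons, Camk2a excitatory neurons and Cx3cr1 microglia. Liver is therefore whole tissue while each brain library is enriched for a single cell type, and the antibody that recovered mRNA from untagged liver is not given, since the protocol shared by all libraries names anti-GFP antibodies. Tissue, strain and tag cannot be told apart. Age, sex and the number of animals are not given for these libraries.

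Hepatocytes make most proteins of blood plasma, turn ammonia into urea, make glucose and ketone bodies for other organs, and oxidise drugs and bile acid precursors. They share the liver with resident macrophages (Kupffer cells), sinusoidal endothelium, stellate cells and bile duct cells. Many of these functions rest on liver-type members of enzyme families whose other members serve brain and muscle.

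The liver library held 115734 counts over 8541 of 23871 genes. Brain libraries held 133456 to 2005627 counts, with Cx3cr1-Cre the shallowest, and would show 8146 to 8821 genes if drawn to the liver total. Levels are CPM, counts scaled to the library total; intervals are 95% exact Poisson for counts and Clopper-Pearson for shares, and they cover counting error only. A gene was compared where liver, or the mean of the brain groups, would give at least 10 counts at the liver total. With 1 liver library there is no test. A gene was called higher when liver had at least 10 counts and at least 4-fold the CPM of the highest brain library, and lower when liver was at most 1/4 of the lowest. A lower call therefore needs at least 4-fold the liver CPM in every brain library. A gene at 0 in any brain library cannot be called lower, so genes of a single brain cell type are mostly out of reach of that call. A library at 0 was set to 3 counts, and a ratio that rests on such a library is given as a bound at that floor. For a liver gene at 0 the floor is 25.9 CPM, while the upper limit of the exact interval is 31.9 CPM.

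The label fits its markers. Alb, plasma albumin (chromosome 5, 90460870 to 90476602 on GRCm38), was the top gene of liver with 7026 counts, or 60708 CPM (59297 to 62145), against 1.99 CPM in 1 Camk2a-Cre library and no count in the other brain libraries. Pck1, the cytosolic enzyme that opens gluconeogenesis, had 16901 CPM in liver and no count in any brain library. Cps1, which begins the urea cycle, had 15276 CPM in liver, against 19.0 and 17.9 CPM in Gad2-Cre, 0.499 CPM in 1 Camk2a-Cre library and no count in the other 5. Tat, which breaks down tyrosine, had 12650 CPM in liver and 0.572 CPM in 1 Gfap-Cre library. Liver was at least 2701-fold above brain for Alb, at least 752-fold for Pck1, at least 680-fold for Cps1 and at least 563-fold for Tat. Pck1 lies on chromosome 2 (173153073 to 173159274), Cps1 on chromosome 1 (67122426 to 67231267) and Tat on chromosome 8 (109986078 to 109999804).

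**Figure D1:**
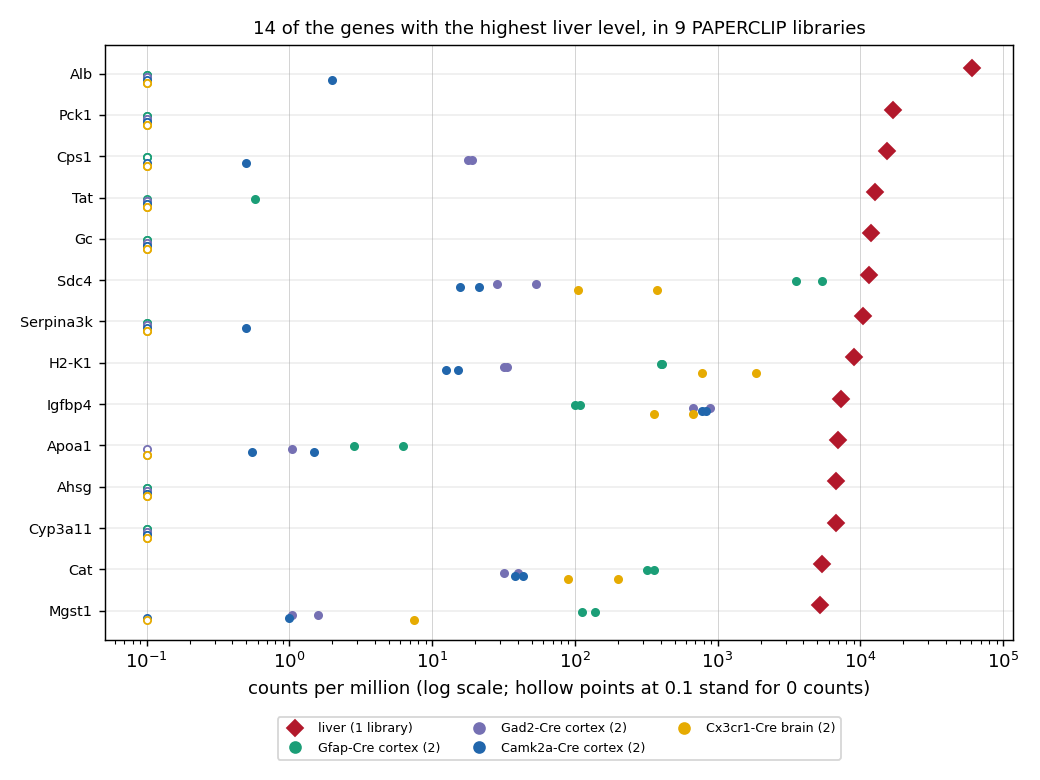
Level of 14 of the 15 genes with the most liver counts, in CPM on a log axis, with the liver library as a diamond and each brain library as a dot (hollow at 0 counts). Liver lies to the right of every brain library for each gene, by 2.14-fold for Sdc4 and by at least 2701-fold for Alb.

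Promoters of 4 of the higher genes are shown because they hold the letters GTTAATNAT, the first part of the site known for the hepatocyte factor HNF1. Each is the 150 bases before the gene start, read 5' to 3' on the gene's strand, from RefSeq GRCm38.p6, with the match in capitals. They cover Alb (chr5:90460720-90460869, plus), Gc (chr5:89457899-89458048, minus), Slco1b2 (chr6:141629368-141629517, plus) and Fga (chr3:83026003-83026152, plus, match on the other strand).
Alb: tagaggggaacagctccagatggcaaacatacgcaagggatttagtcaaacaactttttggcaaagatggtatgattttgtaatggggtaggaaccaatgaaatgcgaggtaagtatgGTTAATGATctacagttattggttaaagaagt
Gc: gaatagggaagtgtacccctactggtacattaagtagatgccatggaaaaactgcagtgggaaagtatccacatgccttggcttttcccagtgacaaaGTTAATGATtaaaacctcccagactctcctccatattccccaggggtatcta
Slco1b2: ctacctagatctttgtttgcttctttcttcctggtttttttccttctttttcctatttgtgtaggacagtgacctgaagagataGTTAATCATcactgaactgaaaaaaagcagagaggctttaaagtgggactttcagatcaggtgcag
Fga: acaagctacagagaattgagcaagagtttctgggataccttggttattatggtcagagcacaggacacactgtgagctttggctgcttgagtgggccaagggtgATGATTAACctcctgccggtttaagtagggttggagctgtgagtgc
In the RefSeq windows of 250 bases before to 50 after the start, searched on both strands, 22 of the 321 higher genes with a promoter entry held GTTAATNAT (6.85%), against 4 of 2400 compared genes not called higher (0.167%) and 0.836% of all 27025 promoters. The 22 include 3 Ugt1a entries that share their counts; without the Ugt1a entries 19 of 314 held it (6.05%). The whole HNF1 palindrome, in which those letters continue as TAAC, was in 0 of the 321 and in 2 promoters in all. The 9 letters were cut down from longer forms after those had been searched, in part to take in the form known in the Alb promoter, so the match in Alb is not independent of the choice. The 6 letters GTTAAT were in 17.4% of higher and 3.83% of the other compared genes, against 7.20% of all promoters. CAAAGTCCA, a form of the HNF4 site, was in 2.49% of higher and 0.292% of the other compared genes, against 0.477% of all promoters. TTGCNNAA, part of the C/EBP site, was in 19.3% and 7.63%, against 10.8% of all promoters, and TATAAA was in 20.2% and 6.92%, against 14.2%. The GC box CCGCCC was in 35.5% and 68.3%, against 35.9%. In all, 16 sets of letters were searched, many of them overlapping. GTTAATNAT followed by T was in 4.36% of higher and 0.0417% of the other compared genes, against 0.437% of all promoters, and the palindrome without its outer bases was in 3 and 0 genes, against 0.118%. Other forms of the HNF4 site were CAAAGNNCA, with 14.95% and 3.92% against 6.37% of all promoters, AAAGTCCA, with 5.61% and 0.833% against 1.25%, and CAAAGGTCA, with 1.25% and 0.0833% against 0.466%. The forkhead letters TGTTTAC were in 4.67% and 2.29%, against 3.55% of all promoters. Of other C/EBP forms, TTGCGCAA was in 0 and 4 genes, against 0.185% of all promoters, and TTGTGCAAT in 2 and 4, against 0.192%. The E box CACGTG was in 6.85% of higher and 10.6% of the other compared genes, against 7.24% of all promoters. For the GC box and the E box the higher genes lay near the share of all promoters, and the other compared genes lay above it. The first promoter entry of each gene was used. The motif shares are a description, and a match does not show that a factor binds.

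Of 3595 genes compared, 438 were higher in liver, which is 12.2%, and 82 were lower, which is 2.28%. The lower call leaves out genes high in only some brain groups, so the 2 counts do not give a balance. Against the mean of the brain groups, 662 were higher and 1088 lower. The 438 higher genes held 43.6% of liver counts, against 0.447% to 0.934% of the counts of a brain library. That contrast follows from the rule that picked them. No brain library had a count for 131 of the higher genes. Of the compared genes, 981 reached the minimum only in liver, so shares of compared members called higher are not evidence for a list. In whole tissue, fewer cells of a type and less RNA per cell cannot be told apart. Gene families that share a 3' end or near-identical copies are uncertain: 8 Ugt1a entries held the same 97 liver counts and the same counts in every other library, so they are 1 signal listed 8 times.

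**Figure D2:**
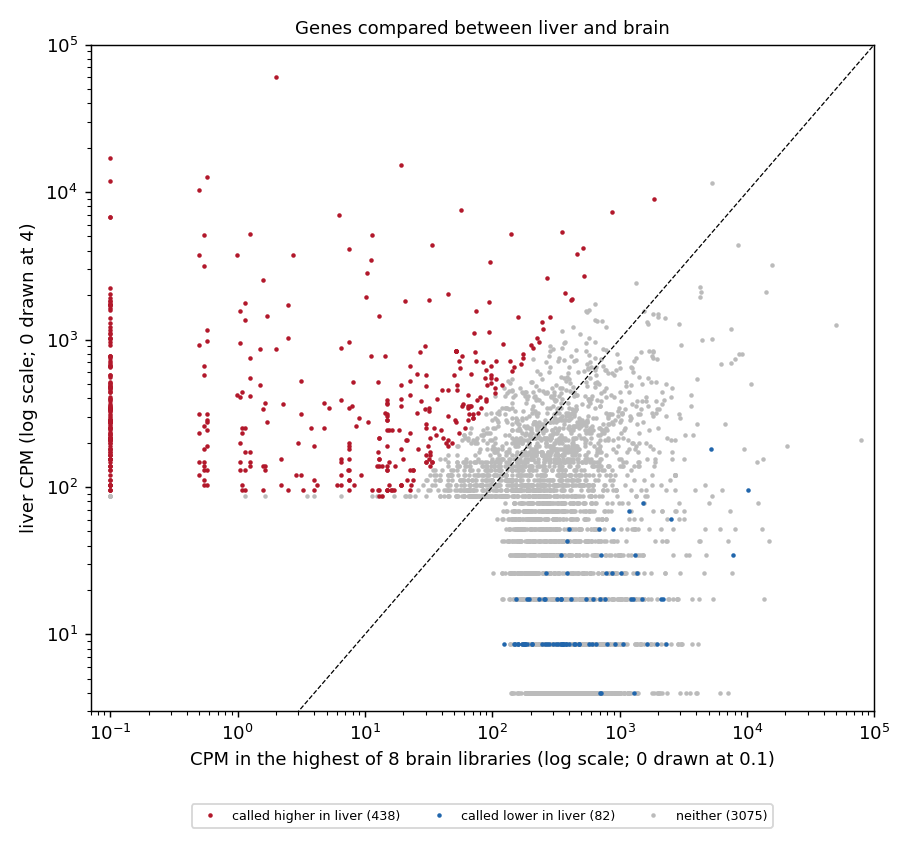
Each of the 3595 compared genes by its CPM in the highest brain library and in liver, on log axes with 0 drawn at the edge; the dashed line marks equal levels. The 438 higher genes lie above the line, 131 of them at the left edge with no brain count, while most of the 82 lower genes lie on the rows of 1 to 3 liver counts.

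The 22 hepatocyte lists hold 500 genes, of which 499 were in the table, 305 were compared, 217 were higher, 88 were in neither call and 0 were lower. Members low in any brain library are out of reach of the lower call, so 0 lower is no evidence for a list. Together the 22 lists took 36.3% (36.0% to 36.6%) of liver counts, against 0.819% to 11.97% of brain counts, median 3.25%. Over compared members, the median ratio of liver to the highest brain library was 16.7 for the urea cycle, 12.3 for phase I enzymes and 1.03 for lipid synthesis, against 0.330 over all compared genes. These medians describe the compared members and are no evidence for a list, because many members were compared only through their liver level, and ratios against libraries at 0 enter at their bound. In 17 of the 22 lists the liver share lay above every brain library. The others were plasma protease inhibitors, complement, lipid synthesis, iron and copper handling, and the pericentral genes.

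**Figure D3:**
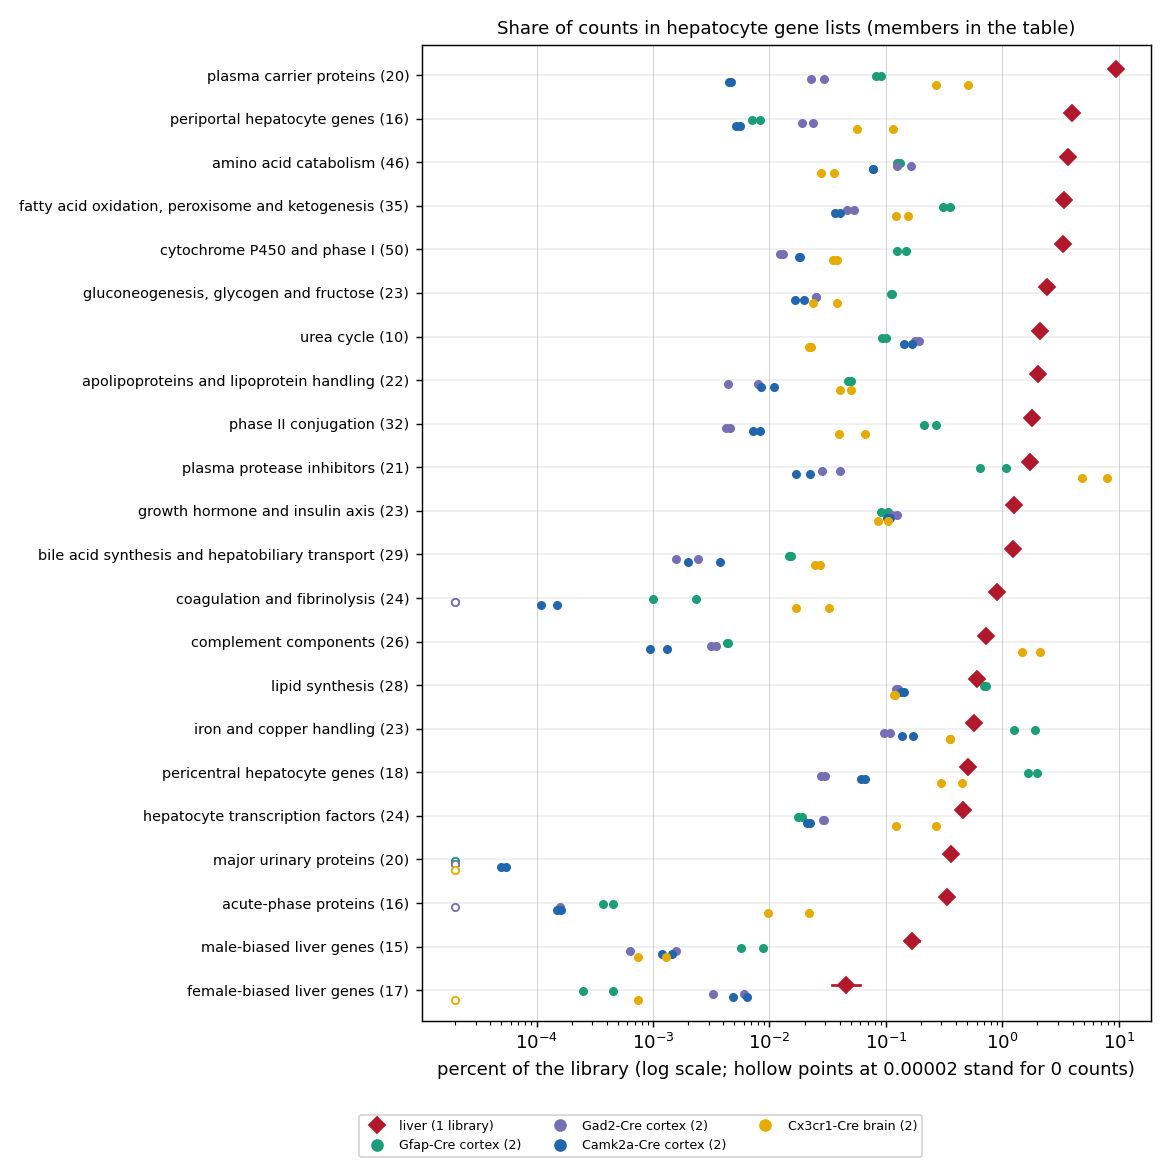
Share of library counts in each of 22 hepatocyte gene lists, in percent on a log axis, with liver as a diamond (line, 95% interval) and each brain library as a dot. Plasma carriers reach 9.54% in liver; Cx3cr1-Cre dots pass liver for protease inhibitors and complement, and Gfap-Cre dots pass it for lipid synthesis, iron and copper, and pericentral genes.

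The plasma carriers held 9.54% of liver counts, against at most 0.502% in brain, and 16 of 20 were higher. Alb made up 7026 of their 11045 counts, and the other carriers held 3.47%, below amino acid breakdown and the periportal genes. Beside Alb, the carrier of vitamin D Gc had 11812 CPM and the fetuin Ahsg 6791 CPM in liver, and neither had a brain count. Ttr, which carries thyroid hormone, had 4398 CPM in liver and 1.09 to 33.7 CPM in brain. Sepp1, the selenium carrier, was in neither call, with 2281 CPM in liver and 2175 and 4294 CPM in Cx3cr1-Cre. Transferrin, Trf, was also in neither call, at 1365 CPM in liver and up to 637 CPM in Cx3cr1-Cre.

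Apolipoproteins held 2.04% of liver counts, 40.6 times the highest brain library, and 11 of 22 were higher. Apoa1, of high-density lipoprotein, had 6982 CPM in liver, Apoc1 5098 CPM and Apoc3 3439 CPM, against at most 11.4 CPM in brain. Apob, the scaffold of very-low-density lipoprotein, had 925 CPM in liver and none in brain. Apoe differed from these: it had 259 CPM (175 to 370) in liver, against 255 and 237 CPM in Gfap-Cre and 290 and 442 CPM in Cx3cr1-Cre, with at most 1.59 CPM in neuronal libraries. The liver interval covers both Gfap-Cre values and the lower Cx3cr1-Cre value.

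Clotting factors and their inhibitors held 0.892% of liver counts, and 12 of 24 were higher. The fibrinogen chains were unequal in liver, with 1815 CPM for Fga, 778 CPM for Fgb and 207 CPM for Fgg, and no brain count for any. Serpinc1, antithrombin, had 1624 CPM and Serpinf2, antiplasmin, 1953 CPM in liver. Prothrombin, F2, rested on 7 counts and was not compared. Among protease inhibitors 14 of 21 were higher, led by Serpina3k at 10403 CPM, while Cst3, which inhibits lysosomal proteases, had 207 CPM in liver against 79434 and 48450 CPM in Cx3cr1-Cre. That gene alone put the brain share of this list at up to 7.95%, against 1.74% in liver.

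Complement components were divided between liver and Cx3cr1-Cre. None was called lower in liver, but that call could not reach the C1q chains, which were low in the cortical libraries. Of 26 components 15 were higher in liver, among them C1s1, a protease of the C1 complex, at 2549 CPM, and C3, the hub, at 406 CPM with no brain count. Terminal components C6, C8a, C8b and Hc were higher too. The C1q chains, in neither call, were highest in Cx3cr1-Cre: C1qc had 9 counts and C1qb 3 counts in liver, while Cx3cr1-Cre had 12158 and 7358 CPM of C1qc and 7576 and 4900 CPM of C1qb. In the cortical libraries C1qc had 0.572 to 30.5 CPM and C1qb 0 to 3.17 CPM, below 77.8 and 25.9 CPM in liver. C1qa was at 0 in liver.

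Acute-phase genes were present at low level, at 0.334% of counts. Haptoglobin, Hp, had 1391 CPM, Saa4 570 CPM and Crp 268 CPM in liver, and none had a brain count. Saa1, Saa2, Orm2, Orm3 and Lcn2, genes that respond strongly in mouse inflammation, were at 0 in liver. Major urinary proteins held 0.365%, with 1927 CPM for Mup11 and 1089 CPM for Mup3, and 13 of the 20 Mup genes in the table had no liver count. Counting among these near-identical copies is uncertain.

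The urea cycle held 2.11% of liver counts, against 0.0217% to 0.193% in brain, and 7 of 10 genes were higher. After Cps1 came Arg1, which releases urea, at 2229 CPM, and Otc at 553 CPM, neither with a brain count. Ass1 had 518 CPM in liver and up to 12.6 CPM in brain. Slc25a22 and Glud1, which handle glutamate in mitochondria, were in neither call. Slc25a22 had 1495 CPM in liver against 1838 and 1698 CPM in Gad2-Cre, and Glud1 had 406 CPM in liver against 749 and 776 CPM in Gfap-Cre.

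Amino acid breakdown held 3.63% of liver counts, and 24 of 46 genes were higher. Mat1a, which makes S-adenosylmethionine, had 5141 CPM in liver. Cth, of the transsulfuration route, had 1806 CPM in liver and 66.2 and 94.9 CPM in Gfap-Cre, and at most 4.76 CPM in neurons. Got1, the cytosolic transaminase, was in neither call. It had 354 CPM in liver, against 1353 and 955 CPM in Gad2-Cre and 603 and 579 CPM in Camk2a-Cre, but 78.7 and 57.2 CPM in Gfap-Cre and 64.5 and 30.0 CPM in Cx3cr1-Cre.

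Glucose production held 2.42% of liver counts, with 13 of 23 genes higher. G6pc, which frees glucose, and Fbp1 each had 441 CPM in liver, with no brain count for G6pc and at most 1.09 CPM for Fbp1. Pygl, which opens glycogen, had 1573 CPM in liver and 1.05 to 74.9 CPM in brain. Pck1 made up 1956 of the list's 2803 liver counts.

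Bile acid and transport genes held 1.23% of liver counts, 45.6 times the highest brain library, and 16 of 29 were higher. Slco1b2, an uptake carrier of the hepatocyte, had 5228 CPM in liver and at most 1.25 CPM in brain. Baat, which conjugates bile acids, had 1002 CPM, and Abcb11, the bile salt export pump, 950 CPM in liver. Cyp7a1, the rate-limiting enzyme of bile acid synthesis, rested on 6 counts and was not compared.

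Phase I enzymes held 3.35% of liver counts, with 28 of 50 higher. Cyp3a11 had 6774 CPM, Cyp2c29 3741 CPM and Cyp2e1 2022 CPM in liver, all with at most 0.499 CPM in brain. Of the compared phase I genes 8 were in neither call. Among them Cyp4f14 had 130 CPM (72.5 to 214) in liver, an interval that covers the 187 and 195 CPM of Gfap-Cre. Phase II enzymes held 1.80%, with 13 of 32 higher. Mgst1 had 5236 CPM in liver against 112 and 139 CPM in Gfap-Cre, while Gstm1 was in neither call, at 1426 CPM in liver against 1994 and 1373 CPM in Gfap-Cre.

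Fat oxidation and ketone body synthesis held 3.37% of liver counts, and 16 of 35 genes were higher. Cat, the peroxisomal catalase, had 5400 CPM in liver against 318 and 356 CPM in Gfap-Cre. The mitochondrial enzymes Hadh and Acadl were in neither call, with 950 and 726 CPM in liver and up to 365 and 451 CPM in Gfap-Cre. Oxct1, which lets tissues burn ketone bodies, had no liver count, against 284 to 701 CPM in brain. At the 3-count floor liver was at least 11.0-fold below the lowest brain library, and at the limit of the counting interval 8.54-fold.

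Lipid synthesis did not set liver apart from Gfap-Cre. It held 0.609% in liver, against 0.698% and 0.717% in Gfap-Cre and 0.118% to 0.143% in the other brain libraries. Of its 28 genes 2 were higher, Hsd17b13 and Pemt. Srebf1, the factor that drives these genes, had 743 CPM in liver against 720 and 679 CPM in Gfap-Cre. Fads1 had 302 CPM in liver against 2297 and 1911 CPM in Gfap-Cre. Dgat2, which makes triglyceride, had 1140 CPM in liver and up to 351 CPM in Camk2a-Cre, below the 4-fold call.

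Among 24 hepatocyte transcription factors 7 were higher, and they held 0.455% of liver counts. Hnf4a had 18 counts and Nr1h4, the bile acid receptor, 36 counts in liver, with no brain count for Hnf4a and 0.499 CPM in 1 Camk2a-Cre library for Nr1h4. Foxa2 and Onecut1 were at 0. Cebpa was in neither call, at 1495 CPM in liver and 2007 and 345 CPM in Cx3cr1-Cre. In the growth hormone and insulin axis 9 of 23 were higher, led by Igfbp4 at 7284 CPM in liver against 99.9 to 879 CPM in brain. Igf1 had 717 CPM in liver, against 65.0 and 106 CPM in Gad2-Cre and 45.2 and 82.4 CPM in Cx3cr1-Cre.

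Iron and copper genes held 0.565% of liver counts, against up to 1.92% in brain, and 5 of 23 were higher. Hamp, the iron hormone hepcidin, had 1158 CPM in liver and no brain count. The metal buffers were in neither call. Mt1 had 156 CPM in liver, against 13455 and 8321 CPM in Gfap-Cre and 111 to 412 CPM in the other brain libraries. Mt2 had 6 counts, or 51.8 CPM (19.0 to 113), in liver, against 4700 and 3115 CPM in Gfap-Cre. The liver interval overlaps the other 6 libraries, which had 14.99 to 27.4 CPM.

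Periportal genes, of hepatocytes near the incoming blood, held 3.98% of liver counts, and pericentral genes 0.512%. Pck1 and Cps1 made up all but 885 of the 4609 periportal counts. Pericentral genes included Cyp2e1 with 234 counts and Glul, glutamine synthetase, with 136. Glul had 1175 CPM in liver against 7508 and 5940 CPM in Gfap-Cre, and Slc1a2, a glutamate transporter, had 147 CPM in liver against 12027 and 10353 CPM in Gfap-Cre. Male-biased genes held 194 liver counts and female-biased genes 53; the lists differ in size and level, so this gives no sex. Sex is not given in the labels.

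Among the brain groups, the highest share of a hepatocyte list was in Gfap-Cre for 9 of the 22 lists and in Cx3cr1-Cre for 8. In 8 lists of each group both its libraries lay above the other 6. Gfap-Cre led for gluconeogenesis, phase I, phase II, fat oxidation, lipid synthesis and pericentral genes, and Cx3cr1-Cre for plasma carriers, clotting, protease inhibitors, complement and acute-phase genes. Several of these leads rest on 1 member. In replicates 1 and 2 of Cx3cr1-Cre, Pros1 held 100% and 95.3% of the clotting list, Cd14 100% and 93.1% of the acute-phase list, and Sepp1 80.6% and 85.5% of the plasma carriers. Cst3 held 99.95% of the protease inhibitors in both, and C1qc 58.1% and 50.2% of complement. In Gfap-Cre, Gstm1 held 74.5% and 64.8% of the phase II list and Slc1a2 60.5% and 62.7% of the pericentral list.

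In 23 families 1 side was taken as liver-type and the other as brain-type. The share of family counts on the liver-type side was above every brain library with counts of the family in 19. Its interval was above in 18, with the family of Acsl1 and Acsl5 making the difference. Not every family is a set of isozymes. Gamt was set against Ckb and Gatm, which are other enzymes, and Gsta3 against Gstp1, of another class. Cox7a1, taken as liver-type, is not a liver form and had 0 of its family's 134 liver counts. Gamt is among the 19 and the 18, while Gsta3 and Cox7a1 are in neither. All 8 brain libraries had counts of the family in 18 families, of which 15 had the liver share and 14 the interval above every one. Arginase had counts in 3 brain libraries. Mat1a took 96.0% of its family in liver and at most 0.280% in brain. Fabp1 took 99.2% in liver and none in brain, where Fabp5 and Fabp7 held the counts. Scd1 took 94.7% in liver, against 20.7% in its highest brain library.

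Some families rest on few counts. The pyruvate kinase Pklr took 6 of 9 (29.9% to 92.5%). The phosphofructokinase Pfkl took 3 of 10, inside the brain range of 4.64% to 66.7%. Cpt1a took all 17 liver counts of its pair, and the highest brain library was at 100% too. Ldha took all 21 counts of the lactate dehydrogenases in liver (83.9% to 100%), with Ldhb at 0, against 7.45% to 51.3% in brain. Ldhb had 285 to 1296 CPM in brain. At the 3-count floor liver was at least 11.0-fold below the lowest, and at the limit of the counting interval 8.51-fold.

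**Figure D4:**
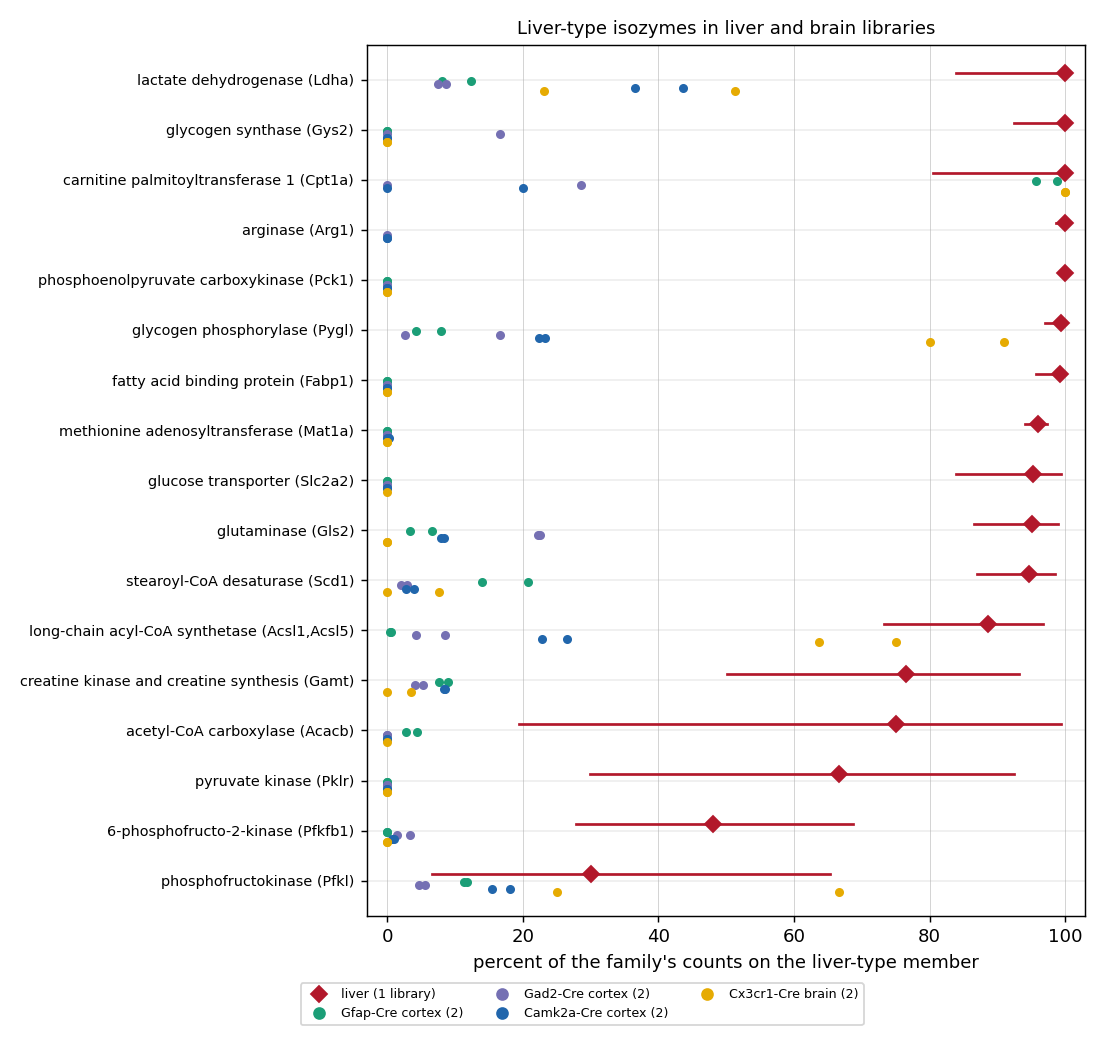
Share of an enzyme family's counts on the liver-type member named in brackets, in percent, for 17 of the 23 families, with liver as a diamond (line, 95% interval) and each brain library as a dot. Liver sits above the dots in most families. Pfkl and Cpt1a overlap with Cx3cr1-Cre, and for Cpt1a the liver interval also covers both Gfap-Cre dots, at 95.7% and 98.8%. The families of Gsta3 and Cox7a1, where liver was not above brain, are among those left out.

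The 12 lists of other liver cells held 0.620% (0.576% to 0.667%) of liver counts together, against 0.200% to 8.36% in brain, median 0.601%. Among 184 genes in the table, 98 had a liver count and 86 had none, against 8541 with a count of all 23871 genes. Of the 34 compared, 5 were higher and 1 lower, against 12.2% and 2.28% of all compared genes. The zeros alone do not set these lists apart from other genes. Kupffer cell markers were sparse: Clec4f, which in mouse marks these cells, had 9 counts, Vsig4 3, Timd4 2 and Cd5l 1. Macrophage genes shared with microglia held 0.0665% in liver, with 6 counts of Csf1r and 0 of C1qa. Their share was 7.40% and 5.96% in Cx3cr1-Cre, and 0.0206% to 0.0505% in the cortical libraries, below liver. Microglial P2ry12, Tmem119 and Cx3cr1 were all at 0.

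Sinusoidal endothelium held 0.0881%, with Clec4g, a lectin of these cells, higher at 15 counts. Stab2 had 2 counts and Lyve1, Dnase1l3 and Oit3 had 3, 3 and 5. Fcgr2b, which clears immune complexes in liver endothelium, had 302 CPM in liver against 1826 and 510 CPM in Cx3cr1-Cre. Stellate cells and fibroblasts held 0.299%, most of it Dcn, a matrix proteoglycan, with 1815 CPM in liver and up to 20.7 CPM in brain, and Cxcl12 with 47 counts. The stellate marker Lrat had 8 counts and Reln 10, while Hgf was at 0. In the bile duct list Spp1 had 57 counts, but Krt19 had 1, Epcam 3, and Krt7 and Sox9 were at 0.

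Blood cell genes had few counts. T and natural killer cells had 9 counts, all Cd3g, with Cd3e, Nkg7 and Gzma at 0. B cells had 1 count and neutrophils 4, with S100a8 at 0. Haemoglobin Hbb-bs had 13 counts and Hba-a1 was at 0. Dendritic cell genes had 8 counts and mesothelial genes 4. Vascular endothelium had 22 counts, of which 14 were Cdh5, a junction protein and the gene of that list called higher. The interval of the T and natural killer cell share, 0.00356% to 0.0148%, covers the highest brain library at 0.00710%. At the 3-count floor a share of 0 counts stands for 0.00259% of the library. The upper limit of the counting interval, 31.9 CPM, lies above that floor.

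**Figure D5:**
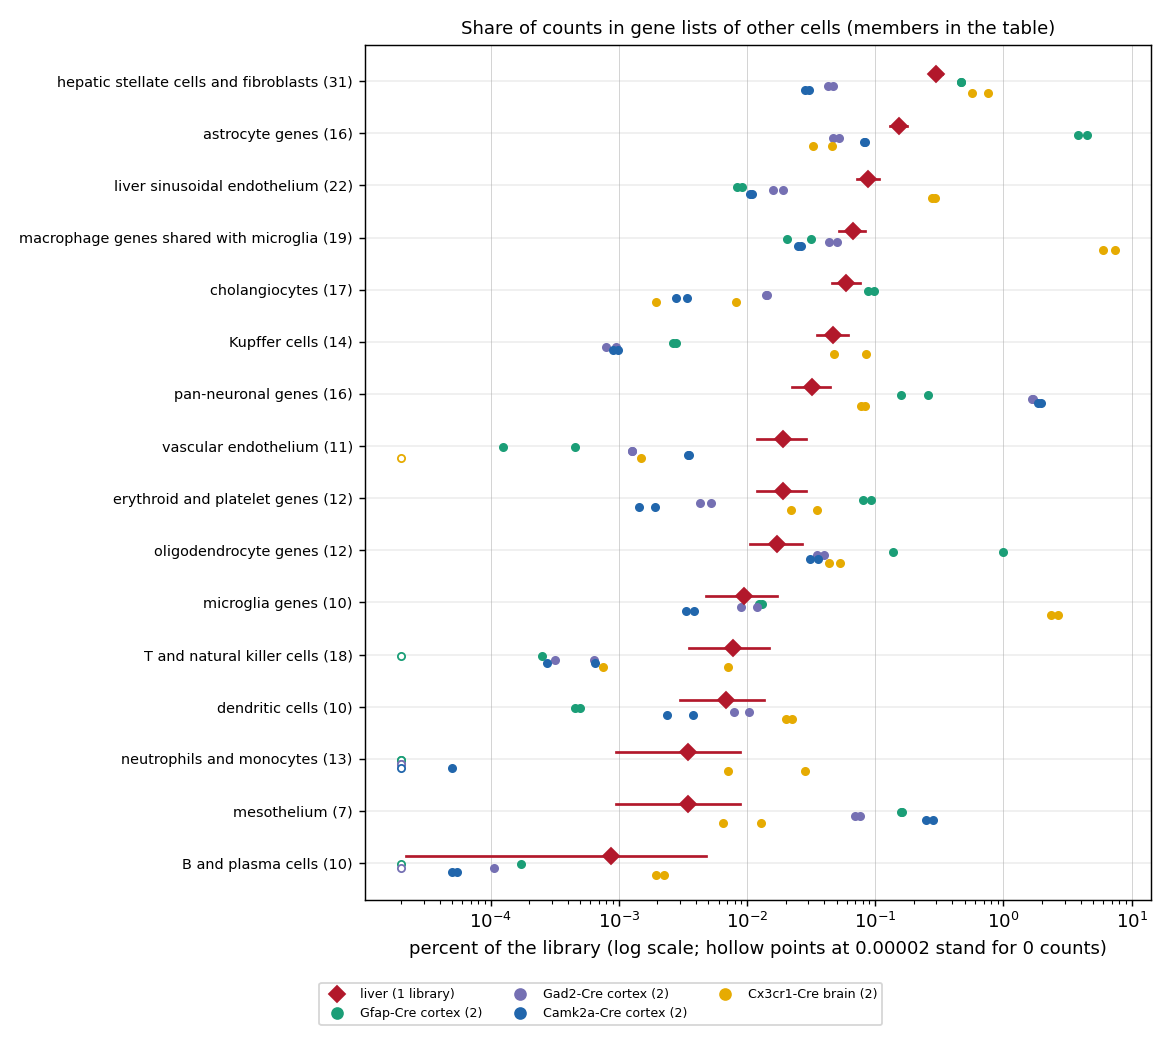
Share of library counts in 12 lists of other liver cells and 4 lists of brain cells, in percent on a log axis, with liver as a diamond (line, 95% interval) and each brain library as a dot (hollow at 0 counts). Stellate and fibroblast genes, at 0.299%, lead the liver cells; liver stands above every brain library only for vascular endothelium and, by 1.10 times, for T and natural killer cells.

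Genes of brain cells held 0.211% of liver counts, against 1.79% to 4.97% in brain. Of these 54 genes 29 had a liver count and 25 had none, against 8541 with a count of all 23871 genes. There were 41 compared, with 1 higher and 1 lower. Pan-neuronal genes had 37 counts in liver, of which 21 were Snap25, at 181 CPM, against 330 and 336 CPM in Cx3cr1-Cre and 7225 to 9575 CPM in Camk2a-Cre and Gad2-Cre. Nrgn, Syn1 and Eno2 were at 0. Astrocyte genes had 176 counts, of which 117 were Ndrg2 and 29 were Aldh1l1, a folate enzyme; Aldh1l1 was the gene of these lists called higher in liver, at 251 CPM against 61.2 and 56.6 CPM in Gfap-Cre. Gfap itself was at 0, and Aqp4 had 1 count. Oligodendrocyte genes had 20 counts, with 7 of Mbp. The source of the Snap25 counts was not tested.

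The 6 lists of more general functions hold 226 genes, of which 124 were compared, 3 were higher and 2 lower. Over all compared genes 12.2% were higher and 2.28% lower. None of 47 respiratory chain genes, 33 of them compared, was called either way, with 1.07% of counts in liver and 0.544% to 1.75% in brain. Cytosolic ribosomal proteins held 0.366% in liver, below the 0.476% to 2.61% of brain. Of these 56 genes 24 were compared, with 0 higher and Rpl3 lower on 1 count. Of 50 secretory genes 34 were compared and 2 were higher, Sec24a and Creb3l3. The secretory list held 0.693% in liver and 0.553% to 0.879% in brain. Splicing and mRNA-stability regulators held 0.227% in liver, below 0.340% to 0.587% in brain. Both low shares are of a liver total of which the hepatocyte lists took 36.3%. They do not compare levels among the remaining counts. In the splicing list of 28 genes, 18 of them compared, Rbm47 was higher with 34 counts and 1 gene was lower. The neuronal Rbfox1, Rbfox3, Elavl2 and Elavl4 had no liver count. Of 19 clock genes 6 were compared, and none was called.

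Outside the lists, 213 further genes were higher. By ratio to the highest brain library they were led by 2810007J24Rik, the sulfotransferase gene that RefSeq now names Sult2a8, with 4130 CPM in liver and 6.45 and 7.49 CPM in Cx3cr1-Cre. The amino acid carrier Slc38a4 had 2817 CPM in liver and up to 10.4 CPM in brain. H2-Q10, a class I histocompatibility gene secreted by mouse liver, had 1832 CPM, Inmt 1728 CPM and the retinol dehydrogenase Rdh7 1702 CPM in liver, with no brain count. Asgr1, the receptor that clears desialylated plasma proteins, had 1348 CPM in liver, and Cdo1, which oxidises cysteine, 1866 CPM. Fn1, fibronectin, had 959 CPM in liver. Among the 15 top liver genes, H2-K1, whose counts may be shared with near-identical relatives, had 8995 CPM in liver against 1852 and 779 CPM in Cx3cr1-Cre, and Sdc4, a cell surface proteoglycan, 11466 CPM in liver against 5355 and 3528 CPM in Gfap-Cre.

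Most of the 82 lower genes rest on a handful of liver counts: 66 had 1 to 3, 3 had none and 13 had more. The best counted of the 10 largest was Itm2c, a brake on amyloid precursor processing, with 21 counts, or 181 CPM, in liver against 2306 to 5234 CPM in brain, 12.7-fold below the lowest (8.29 to 20.6). Calm3, a calmodulin, had 7 counts, 10.7-fold below (4.99 to 27.2). Tspan3 had 2 counts (17.6-fold, interval 4.60 to 149) and Sirpa, the receptor of the CD47 signal, 3 counts (16.3-fold, 5.54 to 79.5). Mapre2, Atp8a1, Cdk14 and 4933434E20Rik had 1 or 2 counts each. When counts of 1 and 2 were set to 3, 32 genes were lower, and 50 were with totals that leave out the 20 top liver genes. Without replicate 1 of Cx3cr1-Cre, a shallow library, 124 genes were lower.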

How the data were processed

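This account draws on 9 PAPERCLIP libraries, 1 of liver and 8 of untreated brain, with the 6 PBS and LPS Cx3cr1-Cre libraries used once. Whole-number counts per gene symbol, deposited by the authors without normalisation, were the input. The tools cutadapt and Novoalign and the build mm10 are named, per the submitters' processing notes. Per the labels' protocols, linkers carry a 7-base random barcode. The collapsing of duplicates, the rule that assigned reads to genes and the use of strand are not stated there, so overlapping, antisense and near-identical genes are uncertain.

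Groups came from sample titles. CPM used library totals, computed with Python 3.11.15, pandas 2.3.3 and scipy 1.17.1. The call rule was tested on simulated data scaled by their known depths, where it called no unchanged gene. Scaled by simulated library totals, as the real libraries are, it called some unchanged genes lower and none higher, since very high genes raise the total; lower calls carry this limit, and totals without the 20 top liver genes left 50. The simulated brain libraries were drawn with Poisson noise from a single mean profile, without differences between cell types. In the data, the 2 libraries of each brain group differed by more than sampling noise (chi-square per degree of freedom 2.70 to 6.10). The simulation therefore does not give the rate of false calls in these data. Members, lists and motifs were chosen with earlier results of these data known. Genes named are Alb, Pck1, Cps1 and Tat, the 15 of highest liver CPM, up to 3 highest and 2 of lowest ratio per list, all isozymes, markers at 0, and the 10 largest calls in each direction; the others were chosen after their values were seen. Alternatives were TMM and RLE scaling (edgeR 4.0.16, R 4.3.3), other filters, folds, floors and brain references, thinning, and leaving out each brain library. RNA-seq libraries of the series were not used here, and values of some genes are not reported here.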

Additional observations from a re-analysis of the deposited data

Results flagged for a closer look

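Hepatocyte genes also appeared in a library that the comparison did not use. For 76 genes of the hepatocyte lists with at least 50 liver counts and below 20 CPM in every untreated brain library, 0.426% (0.404% to 0.449%) of the counts of PBS replicate 3 of Cx3cr1-Cre fell on them, with 69 of the 76 detected. Both cut-offs were chosen after seeing the data. The other PBS and LPS libraries, which the cut-offs did not use, had 0.00109% to 0.00839%. The untreated brain libraries had 0% to 0.00583% and liver had 24.3%, but the cut-offs make the former low and the latter high. Of the counts on the 76 genes, Alb made up 30.4% in PBS replicate 3 and 25.0% in liver. Proportions differed for others: Mup3 made up 3.34% in that library and 0.449% in liver, Serpina1e 1.53% and 0.189%, while Akr1c6 and Ugt3a2 had no count there, against 119 and 140 in liver. Across the 76 genes, log2 counts correlated at r = 0.64 as a description; the genes share both libraries and are not independent. That library also stood out for genes that are not of hepatocytes. Pan-neuronal genes held 0.412% of its counts, against 0.0906% and 0.0747% in PBS replicates 1 and 2 and 0.0574% to 0.0770% in LPS. The source of the hepatocyte and neuronal counts was not tested.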

How the results depend on the processing

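No paired analysis was possible because liver has 1 library and no result comes from a test. The count of higher genes, 438, stayed within 1.5 times (329 to 638) under 3 scalings, 3 filters, 2-fold, thinned brain libraries, a floor of 1 count, cortical libraries alone and families with identical counts kept once; it was 222 at 10-fold, 662 against the mean of the brain groups and 700 against Cx3cr1-Cre alone. Without single brain libraries it was 438 to 478. The count of lower genes, 82, was 50 with totals that leave out the 20 top liver genes, 276 at 2-fold, 13 at 10-fold, 1088 against the mean of the brain groups, 416 against cortex alone, 495 against Cx3cr1-Cre alone and 32 with liver counts of 1 and 2 set to 3; without single brain libraries it was 81 to 124. The share of hepatocyte lists, 36.3%, was 32.2% without Alb, 21.7% without the 20 top genes, 35.2% without families of near-identical genes and 27.1% for members below 20 CPM in every brain library. The share of other liver cells, 0.620%, was 0.794% without the 20 top genes and 0.126% for members below 20 CPM in brain. The handling of counts of 1 and 2, of identical entries and of Ugt1a promoters was chosen after seeing the data. The rule for identical entries was narrowed to symbols that share their first 4 letters (430 higher genes) after its first form, which kept any identical entries once, gave 377 and also merged unrelated genes with no brain count. The liver depth limits the account: a gene at 0 may reach 25.9 CPM at the 3-count floor and 31.9 CPM at the limit of the counting interval. Lists of other liver cells rest on few counts.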
